A study of Sus scrofa with 9 samples.

Results

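The genes described here are the Toll-like receptors and the 2 partner proteins of TLR4, CD14 and LY96, in the abdominal aorta of Tibetan minipigs. There are 10 such genes among the 21357 genes of the table: TLR1, TLR2, TLR3, TLR4, TLR6, TLR7, TLR8, TLR9, CD14 and LY96. They were chosen by gene name. For TLR9 the table gives only the gene ID, ENSSSCG00000011436, which a list of gene IDs pairs with TLR9. RNA-seq was run on 9 libraries, 3 in each of 3 groups. All animals were male Tibetan minipigs, a small pig breed, a few months old at the start. The NC group (normal control) had a normal diet for 24 weeks, the H8 group (hypercholesterolemia in the labels) a high-fat diet for 8 weeks and the H24 group (atherosclerosis in the labels) a high-fat diet for 24 weeks. The high-fat diet held added cholesterol and fat. No group had a normal diet for 8 weeks. Between H8 and NC, the diet thus cannot be told apart from the difference in weeks and any difference in age. Between H24 and H8, the time on the diet cannot be told apart from the age of the pigs. The replicates were different pigs, so the spread within a group includes differences between animals.

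Toll-like receptors sense microbial molecules and molecules released by damaged cells, and signal through adaptor proteins to NF-kB and interferon regulatory factors. TLR1, TLR2, TLR4 and TLR6 act at the cell surface, mostly on lipid ligands, while TLR3, TLR7, TLR8 and TLR9 sense nucleic acids inside endosomes. In arteries these receptors are found on macrophages and other leukocytes and, at lower levels, on endothelial and smooth muscle cells.

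The libraries held between 44094263 and 75787978 estimated counts. H24 replicate 3 stood apart from the others. Its log2 CPM (counts scaled to the library total) correlated across genes with those of H24 replicate 1 at 0.917 and with those of H24 replicate 2 at 0.889, while pairs within NC and H8 ranged from 0.961 to 0.974. The smooth muscle markers, the check on the labelled tissue, summed to between 9590 and 13040 FPKM in the NC and H8 libraries (fragments per kilobase of transcript, scaled to sequencing depth, a level per length). In H24 that sum was between 1667 and 11068 FPKM, with the lowest value in replicate 3. The labelled tissue thus had its defining markers in every library. Beside the fold changes of the 10 genes in H24, those without H24 replicate 3 are given.

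The genes lie on 7 chromosomes of Sscrofa11.1, and the table gives each as a whole gene span, exons and introns together. TLR4 spans chr1:258044435-258055522 on the plus strand, CD14 chr2:142346211-142349349 on the minus strand and LY96 chr4:61926057-61950697 on the minus strand. TLR2 lies at chr8:75416028-75427881 on the minus strand. TLR1 (chr8:30147588-30180651) and TLR6 (chr8:30159780-30180655) are both on the minus strand of the same chromosome, and their spans in the table share 20872 bases, so reads of one may have been counted for the other. Both also lie within FAM114A1 on the opposite strand, and whether the counting used strand is not given in the sources used here. TLR3 lies at chr15:46966079-46978023 on the plus strand and TLR9 at chr13:34353444-34357717 on the minus strand. TLR7 (chrX:9505068-9599085) and TLR8 (chrX:9601178-9616757) are neighbours on the plus strand of the X chromosome. The span of TLR7 shares 72286 bases with PRPS2 on the same strand, so its values carry the same uncertainty as those of TLR1 and TLR6.

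In the normal aorta LY96 had the highest mean level of these genes. LY96 encodes MD-2, the protein that holds lipopolysaccharide in the TLR4 complex. Its mean in NC was 19.6 ± 8.80 FPKM (SD, n = 3). TLR2 followed with 2.24 ± 0.516 FPKM (SD, n = 3), and the other 8 genes had means between 0.116 and 1.72 FPKM. In descending order the means in NC were LY96, TLR2, CD14, TLR4, TLR1, TLR3, TLR9, TLR6, TLR7 and TLR8. Only LY96 and TLR2 had ranges that did not overlap among neighbours in this order, in NC and also in H8. In H24 every pair of neighbours overlapped.

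**Figure D1:**
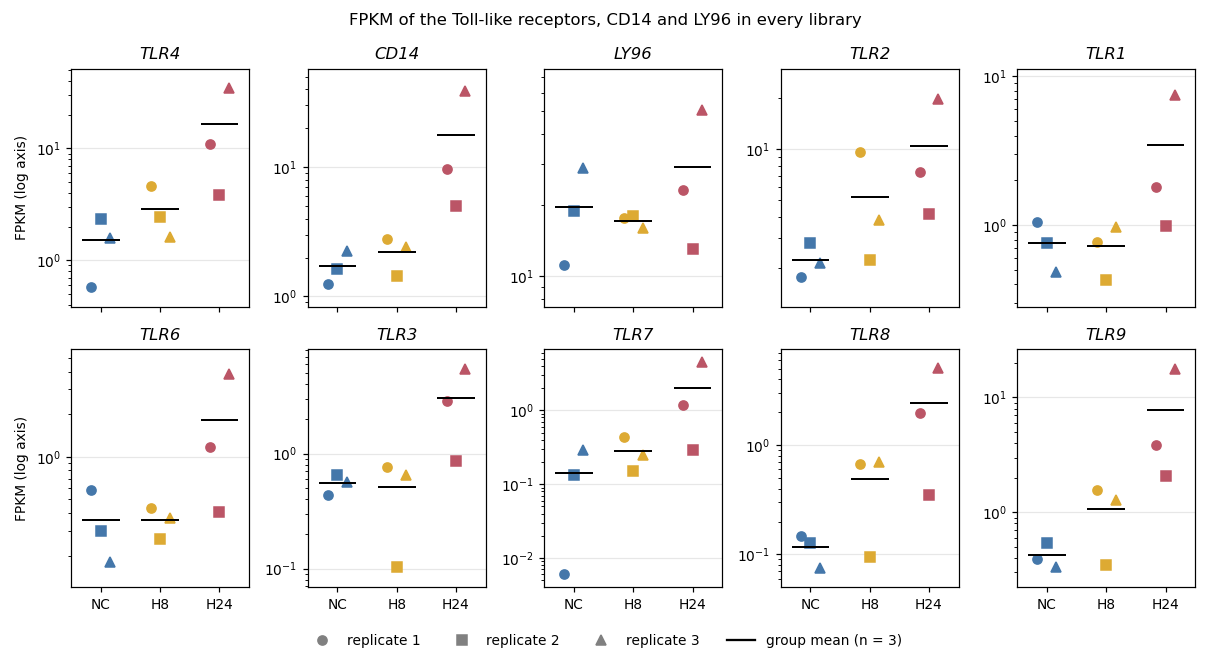
Each panel shows 1 gene, with its level in FPKM on a vertical log axis and the groups NC, H8 and H24 along the horizontal axis. Points are libraries, with a marker shape for each replicate number, and bars are group means. LY96 lies highest in NC at 11.1 to 28.7 FPKM, and in all 10 genes the highest H24 point is replicate 3.

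The comparison of H24 with NC asks which of these genes differed after 24 weeks of high-fat diet. The log2 fold change was above 0 in all 10 genes, and 9 of the 10, without LY96, passed the thresholds of the study, a log2 fold change above 1 with an unadjusted p under 0.05 in edgeR's quasi-likelihood test, where 9.95% of the 14828 genes tested passed in this direction. None of the 10 passed a Benjamini-Hochberg adjusted p of 0.05 in that test, nor did any of the 14828 genes in this direction. In DESeq2, 7 of the 10 passed it. The share over all genes was not computed for DESeq2, so this count has nothing to be read against. The median log2 fold change of the 10 genes was 2.89, against 0.01 over all genes tested. In 6 of the 10 (TLR2, TLR3, TLR4, TLR8, TLR9 and CD14) every H24 library was above every NC library, which held for 12.8% of the genes tested. Within H24 all 10 genes had the order replicate 3 above replicate 1 above replicate 2, an order shared by 25.2% of the genes tested. Replicate 3 exceeded replicate 1 by between 1.90-fold and 4.54-fold and replicate 2 by between 3.89-fold and 15.7-fold.

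Without H24 replicate 3, 6 of the 10 genes still passed the unadjusted thresholds, where 6.49% of the genes tested did. They were TLR2, TLR3, TLR4, TLR8, TLR9 and CD14. In that fit TLR9 (log2 fold change 2.76, adjusted p = 0.0201 in edgeR) and CD14 (2.07, adjusted p = 0.0424) also passed the adjusted threshold, which 1.99% of the genes tested passed. The median over the 10 genes was then 1.88. The calls of TLR1, TLR6 and TLR7 therefore rested on H24 replicate 3, and these were also lost without NC replicate 2. Without NC replicate 3, TLR1 and TLR6 were lost.

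TLR4 is the receptor for bacterial lipopolysaccharide and also responds to modified lipoproteins. It is one of the genes the study singled out on these libraries, so its direction is not independent evidence. Its level was 0.579, 2.35 and 1.59 FPKM in NC, 4.57, 2.44 and 1.60 FPKM in H8, and 10.8, 3.82 and 34.5 FPKM in H24. The H24 libraries lay above all others except that H24 replicate 2 was below H8 replicate 1. In H24/NC its log2 fold change was 3.40 (SE 0.89, 95% interval 1.29 to 5.51, adjusted p = 0.168 in edgeR), and without H24 replicate 3 it was 2.22.

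CD14 hands lipopolysaccharide to the TLR4 complex and also serves TLR2 as a co-receptor. It was at 1.25, 1.63 and 2.26 FPKM in NC, at 2.78, 1.43 and 2.40 FPKM in H8, and at 9.74, 5.04 and 38.5 FPKM in H24. Every H24 library was above all 6 others, while NC and H8 overlapped. The log2 fold change of CD14 was 3.35 in H24/NC (SE 0.77, 95% interval 1.52 to 5.18, adjusted p = 0.137 in edgeR), and 2.07 without H24 replicate 3.

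LY96, the third protein of the complex, was at 11.1, 18.9 and 28.7 FPKM in NC, at 17.6, 17.9 and 15.9 FPKM in H8, and at 23.3, 13.0 and 50.6 FPKM in H24. The 3 groups overlapped, and only H24 replicate 3 exceeded the range of NC. Its log2 fold change in H24/NC was 0.54 (SE 0.56, 95% interval -0.78 to 1.86, adjusted p = 0.717 in edgeR), and it was -0.15 without H24 replicate 3. The interval reaches past 1 on the log2 scale, so a 2-fold higher level of LY96 lies within it.

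TLR2 pairs with TLR1 or TLR6 to sense bacterial lipopeptides. TLR2 was at 1.78, 2.80 and 2.14 FPKM in NC, at 9.65, 2.23 and 3.85 FPKM in H8, and at 7.39, 4.15 and 19.9 FPKM in H24. H8 replicate 1 was above 2 of the 3 H24 libraries, and the other H8 libraries were closer to NC. In H24/NC the log2 fold change of TLR2 was 2.19 (SE 0.58, 95% interval 0.82 to 3.57, adjusted p = 0.172 in edgeR), and it was 1.32 without H24 replicate 3.

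The TLR2 partners were lower and followed H24 replicate 3. TLR1 was at 1.04, 0.758 and 0.483 FPKM in NC, at 0.770, 0.426 and 0.975 FPKM in H8, and at 1.81, 0.988 and 7.53 FPKM in H24. TLR6 was at 0.585, 0.299 and 0.180 FPKM in NC, at 0.434, 0.264 and 0.370 FPKM in H8, and at 1.17, 0.407 and 3.85 FPKM in H24. For both, H24 replicate 2 lay inside the NC range. Their log2 fold changes in H24/NC were 2.16 for TLR1 (SE 0.79, adjusted p = 0.302 in edgeR) and 2.33 for TLR6 (SE 0.86, adjusted p = 0.308 in edgeR). Without H24 replicate 3 they were 0.85 for TLR1 (95% interval -0.28 to 1.97) and 1.12 for TLR6 (95% interval -0.37 to 2.60).

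Among the endosomal receptors, TLR9 and TLR8 had the largest log2 fold changes in H24/NC of all 10 genes. TLR9 senses unmethylated CpG DNA. It was at 0.394, 0.539 and 0.335 FPKM in NC, at 1.57, 0.351 and 1.29 FPKM in H8, and at 3.87, 2.08 and 17.6 FPKM in H24. Every H24 library was above every library of NC and H8, and 2 of the 3 H8 libraries were above NC. The log2 fold change of TLR9 was 4.18 (SE 0.85, 95% interval 2.17 to 6.20, adjusted p = 0.132 in edgeR), and 2.76 without H24 replicate 3.

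TLR7 and TLR8 sense single-stranded RNA. TLR8 was at 0.146, 0.126 and 0.0754 FPKM in NC, at 0.673, 0.0952 and 0.699 FPKM in H8, and at 1.98, 0.348 and 5.01 FPKM in H24. Its H24 libraries were above all of NC, but H24 replicate 2 was below 2 of the H8 libraries. The log2 fold change of TLR8 in H24/NC was 4.37 (SE 0.94, 95% interval 2.15 to 6.58, adjusted p = 0.132 in edgeR), and 3.27 without H24 replicate 3. TLR7 was at 0.00603, 0.134 and 0.289 FPKM in NC, the first of these from 4 counts, at 0.436, 0.150 and 0.249 FPKM in H8, and at 1.18, 0.287 and 4.50 FPKM in H24. H24 replicate 2 lay just inside the NC range. Its log2 fold change in H24/NC was 3.76 (SE 1.36, 95% interval 0.56 to 6.97, adjusted p = 0.296 in edgeR), and 2.30 without H24 replicate 3 (95% interval -0.32 to 4.92).

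TLR3 senses double-stranded RNA and, alone among these receptors, signals without MYD88. It was at 0.435, 0.656 and 0.570 FPKM in NC, at 0.769, 0.103 and 0.650 FPKM in H8, and at 2.85, 0.856 and 5.41 FPKM in H24. The H24 libraries were above all others, and H8 replicate 2 was the lowest of the 9. In H24/NC the log2 fold change of TLR3 was 2.42 (SE 0.66, 95% interval 0.87 to 3.97, adjusted p = 0.181 in edgeR), and it was 1.69 without H24 replicate 3.

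**Figure D2:**
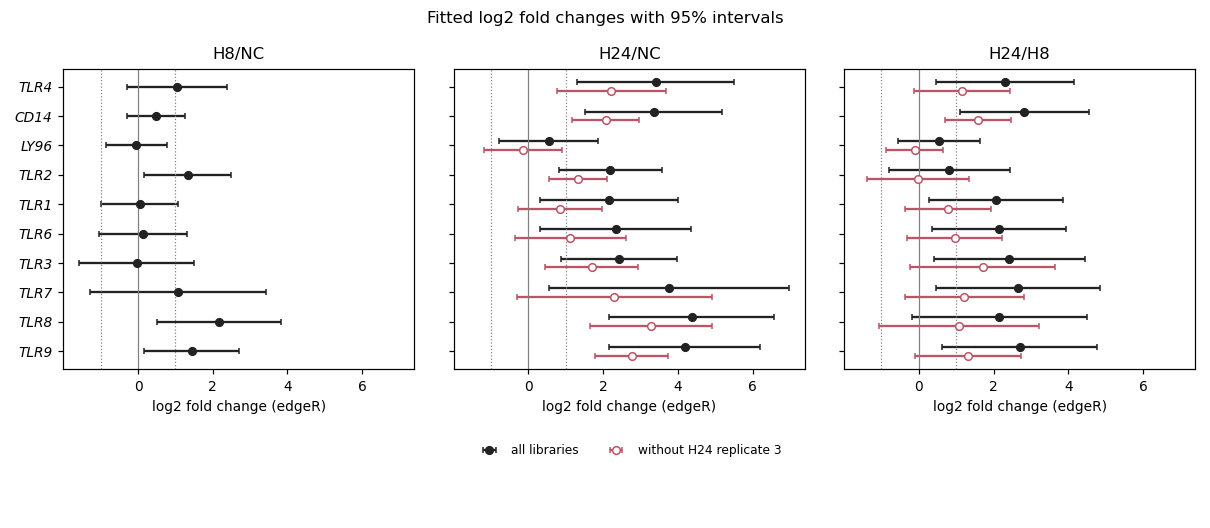
The plot shows the log2 fold change of each gene (horizontal axis) in H24/NC, H8/NC and H24/H8, with points at the edgeR estimate, bars for the 95% interval and open points for the fit without H24 replicate 3. In H24/NC the interval lies above 0 for 9 genes and spans 0 for LY96, which is at 0.54.

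The comparison of H8 with NC asks what was different after 8 weeks of the diet. Here TLR2, TLR8 and TLR9 passed the unadjusted thresholds, 3 of the 10 genes, where 5.11% of the 14336 genes tested did. The log2 fold changes were 1.33 for TLR2 (SE 0.49, adjusted p = 0.285 in edgeR), 2.17 for TLR8 (SE 0.71, adjusted p = 0.249) and 1.43 for TLR9 (SE 0.55, adjusted p = 0.294). None of the 10 passed the adjusted threshold in edgeR, where 0.014% of the genes tested did in this direction. In DESeq2 1 did, where the share over all genes was not computed. In none of the 10 were all H8 libraries above all NC libraries, which held for 6.91% of the genes tested. The median over the 10 was 0.76, against 0.01 over all genes tested. Leaving out 1 library spread the log2 fold change of TLR2 from 0.55 to 1.66, that of TLR8 from 1.84 to 2.63 and that of TLR9 from 1.04 to 1.82. These calls rested on single libraries. The count was 0 without H8 replicate 1, 0 without NC replicate 3, 1 without H8 replicate 3 (TLR2), 1 without NC replicate 1 (TLR8) and 4 without NC replicate 2. For these fits the shares over all genes were not computed.

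The TLR4 complex was not called in H8/NC. The log2 fold change was 1.05 for TLR4 (95% interval -0.29 to 2.39), 0.48 for CD14 (95% interval -0.29 to 1.25) and -0.05 for LY96 (95% interval -0.85 to 0.76). TLR1 at 0.04, TLR3 at -0.03, TLR6 at 0.14 and TLR7 at 1.07 also did not pass. Except for LY96, the 95% intervals of these uncalled genes reach above 1 on the log2 scale, which these libraries could not resolve.

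H24 and H8 were compared to ask what differed between 24 and 8 weeks of the diet. In H24/H8, 7 of the 10 genes passed the unadjusted thresholds (TLR1, TLR3, TLR4, TLR6, TLR7, TLR9 and CD14), where 7.22% of the 14788 genes tested did. Their log2 fold changes lay between 2.07 for TLR1 and 2.82 for CD14, and the adjusted p in edgeR was between 0.336 and 0.341. None passed the adjusted threshold in edgeR, which 0.0135% of the genes tested passed in this direction. In DESeq2 4 did, where the share over all genes was not computed. In 4 of the 10 (TLR1, TLR3, TLR9 and CD14) every H24 library was above every H8 library, which held for 15.5% of the genes tested. TLR2 had a log2 fold change of 0.82 (95% interval -0.79 to 2.43), TLR8 of 2.16 and LY96 of 0.55, and these did not pass. Without H24 replicate 3 the count was 1, CD14 with 1.57, where 3.75% of the genes tested passed. In that fit the other 6 genes lay between 0.79 for TLR1 and 1.70 for TLR3, and TLR2 was at -0.02. The count was 2 without H8 replicate 2 (TLR3 and CD14) and 2 without H8 replicate 3 (TLR9 and CD14), where the shares over all genes were not computed. The 3 comparisons share libraries, so their values are not independent of each other.

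CD14 was therefore called in H24/H8 in each fit that left out 1 library, whereas the other 6 genes each lost the call in at least 1 of these fits.

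Ratios of FPKM describe the balance within the TLR4 complex. These ratios, taken within a library, were chosen after the values were seen. LY96 was 19.2, 8.04 and 18.0 times TLR4 in NC, 3.86, 7.37 and 9.96 times in H8, and 2.14, 3.40 and 1.47 times in H24. The H24 ratios were below all others, those of replicates 1 and 2 included, and their geometric mean was 6.38-fold lower than in NC. The exact permutation test, two-sided, gave p = 0.1, the smallest that 3 against 3 libraries allow, and 0.375 after adjustment over 15 tests of ratios. Against H8 the ratio was 2.98-fold lower in H24, also without overlap (exact p = 0.1, adjusted 0.375). The ratio of CD14 to TLR4 overlapped between H24 and NC (exact permutation p = 0.7, adjusted 0.955).

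**Figure D3:**
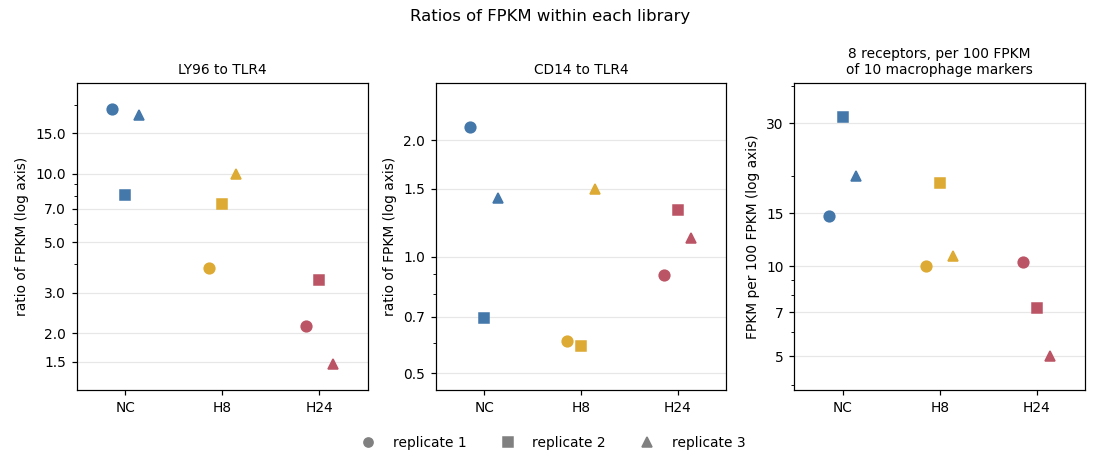
The 3 panels show, on vertical log axes, the ratio of LY96 to TLR4, the ratio of CD14 to TLR4 and the receptor sum per 100 FPKM of the macrophage markers, with 1 point per library in NC, H8 and H24. The LY96 to TLR4 ratio is between 8.04 and 19.2 in NC and between 1.47 and 3.40 in H24.

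The make-up of the receptors is given as a description. The 8 Toll-like receptors summed to 4.98, 7.66 and 5.66 FPKM in NC, to 18.9, 6.06 and 9.68 FPKM in H8, and to 31.1, 12.9 and 98.2 FPKM in H24. TLR2 made up 35.9% to 37.8% of this sum in NC, 36.9% to 51.1% in H8 and 20.2% to 32.1% in H24, so its share in H24 was below that in every other library. The share of TLR9 was 5.91% to 7.92% in NC, 5.80% to 13.3% in H8 and 12.4% to 17.9% in H24. H24 and NC did not overlap for TLR9, while H8 overlapped both. The share of TLR4 was 11.6% to 30.7% in NC and 29.5% to 35.1% in H24, which overlapped. The ratio of TLR2 to TLR4 was 2.26-fold lower in H24 than in NC, without overlap (exact permutation p = 0.1, adjusted 0.375).

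**Figure D4:**
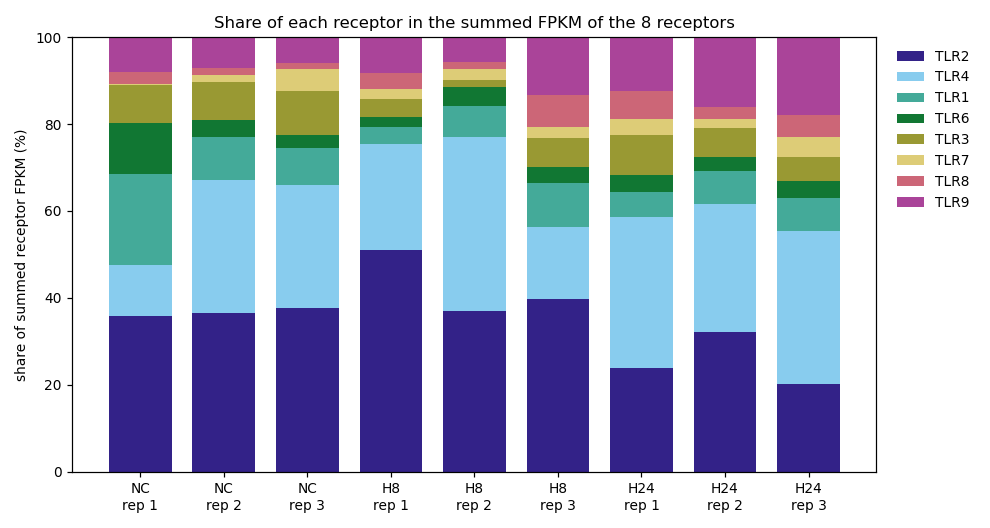
The stacked bars show the percent of the summed FPKM of the 8 receptors (vertical axis) that each receptor takes in every library. TLR2 takes 35.9% to 37.8% in NC and 20.2% to 32.1% in H24, and TLR9 5.91% to 7.92% and 12.4% to 17.9%.

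The macrophage markers and some other leukocyte markers were higher in the same H24 libraries. The 10 macrophage markers summed to between 24.3 and 33.7 FPKM in NC, 32.0 and 188 FPKM in H8, and 179 and 1959 FPKM in H24. All 10 were called higher in H24/NC, beside 9.95% of all genes tested. The macrophage marker MARCO had a mean under 0.1 FPKM, and 9 of the 10 were tested in H8/NC. The 6 T and NK cell markers summed to between 1.26 and 2.59 FPKM in NC and 30.3 and 354 FPKM in H24. In H24/NC 4 of the 6 were called, beside the same 9.95%, and in H8/NC only 3 were tested. NKG7 alone gave 27.2, 19.8 and 341 FPKM in H24, and GZMB had a mean under 0.1 FPKM. The 6 monocyte and neutrophil markers summed to between 0.531 and 0.777 FPKM in NC and 5.47 and 83.0 FPKM in H24. The 4 adipocyte markers summed to between 10.0 and 35.3 FPKM in NC, 0.625 and 1.18 FPKM in H8, and 2.87 and 17.8 FPKM in H24. In whole tissue, more cells of a type and more RNA per cell cannot be told apart, nor can fewer cells and less RNA per cell. The part of these cell types in the results above was not tested. Per 100 FPKM of the macrophage markers, the receptor sum was 14.8, 31.5 and 20.0 in NC, 10.0, 18.9 and 10.8 in H8, and 10.3, 7.23 and 5.01 in H24. This was 2.92-fold lower in H24 than in NC, with no overlap (exact permutation p = 0.1, adjusted 0.375). Taken singly per 100 FPKM of these markers, TLR1, TLR2, TLR3, TLR6, CD14 and LY96 were lower in H24 than in NC without overlap. TLR4 (1.72 to 9.68 in NC and 1.76 to 3.59 in H24), TLR7, TLR8 and TLR9 overlapped. Their means were also lower in H24, at 2.49 against 5.68 for TLR4 and 0.261 against 0.530 for TLR7. For TLR8 they were 0.368 against 0.406, and for TLR9 1.11 against 1.52.

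Other genes of the pathway were taken from a list of 82, of which 76 were found in the table. In H24/NC, 29 of the 73 tested were called higher and none lower, beside 9.95% and 1.52% of all genes. The median of the list was 0.80, and none passed the adjusted threshold in edgeR. Without H24 replicate 3, 20 of 69 were called higher and none lower, beside 6.49% of all genes in that direction. Of the 73, 6 had an NC mean under 0.1 FPKM and could pass the filter only through H24 (ACOD1, CD200R1, IL10, TNF, TLR10 and TNIP3). Without these, 25 of 67 were called higher. Among co-receptors, 3 of 5 were called: CD180, a receptor relative of B cells and macrophages, at 5.79 (adjusted p = 0.135 in edgeR), LY86, its MD-2-like partner, at 4.48, and TRIL at 1.99, which lost its call without NC replicate 2, NC replicate 3 or H24 replicate 1. CD180 was at 3.63, LY86 at 2.17 and TRIL at 2.28 without H24 replicate 3. Among the proteins that fold and carry the endosomal receptors, 6 of 12 were called. These included UNC93B1, the chaperone that brings them to endosomes, with a log2 fold change of 2.69, CTSS, a protease that trims them, with 5.57, and SLC15A3, a histidine transporter of endolysosomes, with 3.99. RAB7B, a small GTPase of late endosomes, was at 4.28. Leaving out H24 replicate 3 gave 1.47 for UNC93B1, 3.47 for CTSS, 2.26 for SLC15A3 and 2.95 for RAB7B.

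Between receptor and nucleus the pathway had these values. Of 19 adaptors and kinases, 3 were called higher in H24/NC, beside 9.95% of all genes tested. Whether this count differs from that share was not tested. The 3 were IRAK2 at 3.55, IKBKE at 2.14 and IRAK4 at 1.05. The shared adaptor MYD88 had a log2 fold change of 0.80 and TIRAP of -0.03, and neither passed. IRAK2 was at 2.74 and IKBKE at 1.26 without H24 replicate 3. IRAK4 lost its call without NC replicate 1, NC replicate 2, H24 replicate 1 or H24 replicate 3. Transcription factors gave 6 calls of 13, led by SPI1, the macrophage and B cell factor PU.1, at 4.91 and IRF8 at 4.46, with IRF5 at 3.92 and IRF7 at 1.76 (each adjusted p = 0.132 in edgeR). Leaving out H24 replicate 3 gave 3.01 for SPI1, 3.12 for IRF8, 2.96 for IRF5 and 1.43 for IRF7. SPI1 is another gene the study singled out on these libraries.

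Of 12 negative regulators, 3 were called higher in H24/NC, beside 9.95% of all genes tested. They were CD200R1 at 5.33, TNFAIP3, the ubiquitin-editing protein A20, at 1.95, and SOCS1 at 1.41. CD200R1 could pass the filter only through H24, so its call is a description only. TNFAIP3 lost its call without NC replicate 3 or H24 replicate 3, SOCS1 without NC replicate 1, NC replicate 2, H24 replicate 2 or H24 replicate 3, and CD200R1 without NC replicate 2. CD200R1 was not tested without H24 replicate 3, where it did not pass the filter on low values. Of 12 induced genes, 8 were called, among them IL10 at 4.81, TNF at 2.49 and CCL4 at 2.59. The calls of IL10, TNF and ACOD1 are among the 8. These genes could pass the filter only through H24, so their calls are a description only. Leaving out H24 replicate 3 gave 3.69 for IL10, 2.24 for TNF and 1.64 for CCL4. IL10 had 0, 6 and 5 counts in NC and TNF had 13, 10 and 8, so their folds rest on few counts. ACOD1, which makes itaconate in activated macrophages, had 0 counts in every NC library and 8, 12 and 386 counts in H24, so no fold is given.

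In H8/NC, 15 of 68 pathway genes were called higher and none lower, beside 5.11% and 2.27% of all genes, and the median of the list was 0.56. Of the 68, TNF had an NC mean of 0.047 FPKM and could pass the filter here only through H8. It was not tested without H8 replicate 2 or H8 replicate 3. Transcription factors made up 6 of the 15 called, with SPI1 at 2.26 (adjusted p = 0.170 in edgeR) and IRF8 at 2.11. CTSS was at 2.72, SLC15A3 at 1.74 (adjusted p = 0.0652) and IRAK2 at 1.57. Without H8 replicate 1, CTSS was at 1.35 and IRAK2 at 1.02. Without H8 replicate 1, IRF8 was at 1.56. The chemokines CXCL8 at 4.55 and CCL4 at 2.64 were called, and without H8 replicate 2 they were at 1.97 and 1.77. Also called were the negative regulators ATF3 at 3.21 and TNFAIP3 at 2.05. TNFAIP3 lost its call without NC replicate 1, NC replicate 3 or H8 replicate 2. In H24/H8, 16 of 73 were called higher and 4 lower, beside 7.22% and 3.05% of all genes. Those lower were TLR5, JUN, ATF3 and CXCL2, chosen for naming once their values were known. TLR5 and CXCL2 were each called in 2 of the 6 fits that left out 1 library, JUN and ATF3 in all 6. Without H24 replicate 3, 4 of 70 were called higher and 4 lower, beside 3.75% and 2.5% of all genes. In that fit ACOD1, TLR10 and TNIP3 did not pass the filter on low values. The full counts in H8/NC and H24/H8 were not repeated without genes that depend on 1 group to pass it. The calls were 5 higher and 2 lower without H8 replicate 2, and 5 higher and 6 lower without H8 replicate 3. For these fits the shares over all genes were not computed, so these counts have nothing to be read against.

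**Figure D5:**
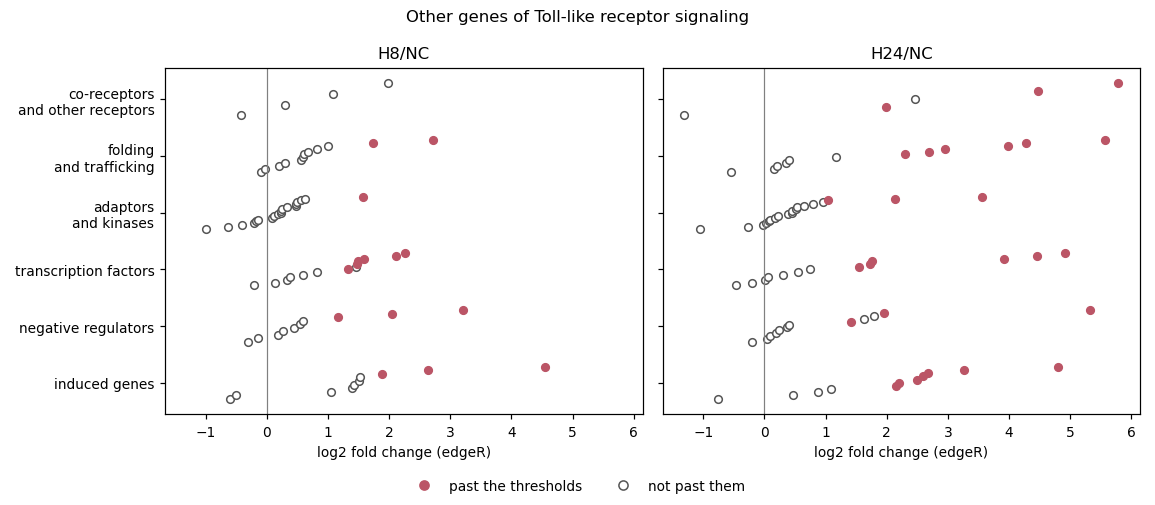
The 2 panels show the log2 fold change in H8/NC and in H24/NC (horizontal axes) of each tested pathway gene, grouped by role, with filled points for genes that passed the unadjusted thresholds and ACOD1 left out. In H24/NC the median of the adaptors and kinases is 0.44, with 3 of 19 called, and that of the trafficking genes is 1.74, with 6 of 12 called. Of all genes tested in H24/NC, 9.95% were called higher.

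The genes whose profiles over the 9 libraries were most like each member are given as a description. The distance is between centred log2(FPKM + 0.1) values, over 10320 named genes that leave out the members. TLR4 was closest to PLEK (1.26) and SLA (1.35), and CD14 to APBB1IP (0.676) and SASH3 (0.897). LY96 was closest to SAT1 (0.712) and UGP2 (0.808). TLR9 was closest to SLA-DMB, a class II antigen presentation gene (0.588), and to CTSD, a lysosomal protease (0.756). TLR2 was closest to INSIG1, a regulator of sterol synthesis (0.602), and CADM1 (1.09). TLR1 was closest to PSMB9 (0.673) and CORO7 (0.780), and TLR6 to SLC9B2 (0.654) and PSMB9 (0.717). The members TLR1 and TLR6 were at 0.701 from each other. TLR7 had PTAFR (0.909) and CX3CR1 (1.26), TLR8 had NAAA (0.740) and OTULINL (0.900), and TLR3 had SLC29A3 (1.10) and MS4A2 (1.26). The 9 libraries share their group structure and H24 replicate 3, which shape every such distance.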

How the data were processed

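Total RNA of the abdominal aorta was sequenced after poly(A) selection (the extraction label speaks of an adipose type, while the tissue labels give the aorta). The authors mapped reads with HISAT 2.0 and made FPKM values with StringTie 1.3.0, on Sscrofa11.1. The submitters' notes also list Bowtie 0.12.2 and a mouse build. The deposited table also holds estimated counts, unnormalized, whose derivation is not given in the sources used here. Genes averaging 0.1 FPKM or more in the libraries compared were tested with edgeR 4.0.16 (TMM, quasi-likelihood, two-sided) in R 4.3.3, with each comparison fitted on its 2 groups. Changed genes had a log2 fold change above 1 in size and an unadjusted p under 0.05. Adjustment (Benjamini-Hochberg) was over all genes tested. limma 3.58.1 and DESeq2 1.42.0 were alternatives. A floor of 3 counts is 0.0396 to 0.0680 CPM, for counting error only. The script was tested on simulated data. Of the pathway list, 6 genes were not analysed here. Named pathway genes were those called with the smallest p, at most 4 per role in H24/NC and 2 in H8/NC. MYD88, TIRAP, the genes named for low levels and those called lower in H24/H8 were outside this rule. Like profiles were the 2 nearest named genes averaging 1 FPKM or more, with the members left out. The members and lists were chosen with earlier results of these data known. The B and plasma cell marker list is not reported here.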

Additional observations from a re-analysis of the deposited data

How the results depend on the processing

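The directions of the 10 genes in H24/NC and H24/H8 did not change under the other normalizations, filters and tests. Among genes averaging 1 FPKM or more, only 4 members were tested in H8/NC, and 1 was called. Called members in H8/NC were 1 with all 9 libraries in one fit, 0 with the replicate block and 0 in limma with either pseudocount. In H24/H8 they were 4 in limma with either pseudocount, 8 in DESeq2 and 8 with all 9 libraries in one fit. For H24/NC limma called 7 with a pseudocount of 0.1, without TLR1 and TLR6, and 6 with 1, also without TLR7. DESeq2 put 7 members past the adjusted threshold in H24/NC, 1 in H8/NC and 4 in H24/H8. The share of all genes past it in DESeq2 was not computed. Nor were the shares of all genes called under the other settings of this section, apart from the fits without H24 replicate 3. limma with a pseudocount of 1 called 8 pathway genes in H8/NC and 12 in H24/H8. Leaving out 1 library gave 6 to 9 called members in H24/NC, 0 to 4 in H8/NC and 1 to 8 in H24/H8, 0 to 2 past the adjusted threshold in H24/NC, and 20 to 34, 11 to 17 and 7 to 25 called pathway genes in H24/NC, H8/NC and H24/H8.

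Reversed log2 fold changes in H8/NC were TLR1 at -0.084 with library size only, -0.073 in limma with a pseudocount of 0.1 and -0.032 with 1, TLR6 at -0.0039 with library size only and LY96 at 0.053 with the replicate block. Leaving out 1 library spread LY96 from -0.15 to 0.89 in H24/NC, from -0.34 to 0.32 in H8/NC and from -0.11 to 0.87 in H24/H8. In H8/NC it spread TLR1 from -0.20 to 0.31, TLR3 from -0.48 to 0.42 and TLR6 from -0.18 to 0.67, and in H24/H8 TLR2 from -0.023 to 1.58. The cause was not tested.

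The deviations of same-numbered libraries from their group means correlated weakly (-0.049 to 0.091). This gave no sign that the numbers pair pigs. Deviations from a mean of 3 libraries are tied to each other, so the check cannot exclude pairing. With the replicate block, 7 members were called in H24/NC, 0 in H8/NC and 5 in H24/H8, and not every library correlated best with its own number. Standard errors of the members' log2 fold changes in H24/NC were 0.56 to 1.36, which limits what 3 libraries a group resolve.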

Other observations

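TLR5, the receptor for bacterial flagellin, had lower values in H24. It was chosen after its values were seen. Its level was 1.48, 1.15 and 0.808 FPKM in NC, 1.35, 1.38 and 1.11 FPKM in H8, and 0.433, 0.813 and 0.154 FPKM in H24. The H24 libraries were below all H8 libraries, and only H24 replicate 2 reached the lowest NC value. The log2 fold change was -1.61 in H24/H8 (adjusted p = 0.355 in edgeR, called by the unadjusted thresholds) and -1.31 in H24/NC (adjusted p = 0.446, not called). Leaving out 1 library kept it between -2.36 and -1.19 in H24/H8, and it was called in 2 of these 6 fits. Without H24 replicate 3 it was -1.19 and called. TLR10, another family receptor, had between 0 and 114 counts per library and a log2 fold change of 2.47 in H24/NC that did not pass.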
